A study of Mus musculus with 6 samples.

Results

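Chemokines are small secreted proteins that steer migrating cells, and chemokine receptors are the proteins on the cell surface that read them. The family was taken here as every gene whose mouse symbol has the form Ccl, Cxcl, Cx3cl1, Ccr, Cxcr, Cx3cr1 or Ackr with its number, after NCBI gene numbers were matched to symbols. This gave 53 of the 18305 genes measured, of which 32 encode ligands and 21 encode receptors. RNA sequencing compared 3 groups of cultured cells of KM mice, with 2 libraries each. CiLC were mouse embryonic fibroblasts of passages 3 to 5 that had been induced with small molecules beginning 24 h after seeding; the compounds are not named in the labels. LC were Leydig cells, the androgen-producing cells of the testis, prepared from testicular tissue and used at passages 0 to 1. MEF were embryonic fibroblasts of passages 3 to 5, and they and the cells that became CiLC came from embryos of 12.5 or 13.5 days post coitum. Whether libraries of 1 group stem from separate cultures is not stated in the labels, so the p-values reflect only how these libraries vary, which may be technical variation. The series set the groups side by side to ask how far induced fibroblasts resemble Leydig cells.

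Chemokines are named by the spacing of their first cysteines, as CC, CXC or CX3C ligands, and bind receptors that couple to inhibitory G proteins. CXC ligands with a glutamate-leucine-arginine (ELR) motif attract neutrophils through Cxcr2, ligands such as Ccl2 attract monocytes through Ccr2, and ligands such as Cxcl12 guide cells in development and in resting tissue. Fibroblasts and macrophages make many of these ligands when NF-kB or interferon signalling is active. In the testis, resident macrophages lie beside Leydig cells.

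The promoters of Cxcl1, Cxcl2, Cxcl3 and Cxcl10 are shown. The first 3 carry the same NF-kB letters and were chosen knowing that their transcripts varied differently between groups. Cxcl10 carries both kinds of letters searched. Whether the letters bear on transcript levels was not tested. Each promoter is given as the 250 bases before the annotated start, 5′ to 3′ on the strand of the gene. The sequences come from RefSeq on build GRCm38.p6, which is not the build of the counts. Capitals mark matches, on either strand, to an NF-kB motif whose centre base is free, or to the repeat of an interferon response element. Cxcl1 lies at chr5:90890995-90891244 on the plus strand, Cxcl2 at chr5:90903649-90903898 on the plus strand, Cxcl3 at chr5:90785851-90786100 on the plus strand, and Cxcl10 at chr5:92348890-92349139 on the minus strand.
Cxcl1: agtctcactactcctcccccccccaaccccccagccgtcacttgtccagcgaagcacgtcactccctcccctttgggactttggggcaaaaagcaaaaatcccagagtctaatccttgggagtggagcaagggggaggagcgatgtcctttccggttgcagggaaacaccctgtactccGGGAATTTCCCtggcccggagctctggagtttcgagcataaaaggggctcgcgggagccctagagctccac
Cxcl2: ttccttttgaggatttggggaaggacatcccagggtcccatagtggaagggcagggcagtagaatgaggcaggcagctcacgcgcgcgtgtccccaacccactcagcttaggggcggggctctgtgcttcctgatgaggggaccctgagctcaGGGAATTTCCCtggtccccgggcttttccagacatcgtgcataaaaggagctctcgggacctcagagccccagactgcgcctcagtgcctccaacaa
Cxcl3: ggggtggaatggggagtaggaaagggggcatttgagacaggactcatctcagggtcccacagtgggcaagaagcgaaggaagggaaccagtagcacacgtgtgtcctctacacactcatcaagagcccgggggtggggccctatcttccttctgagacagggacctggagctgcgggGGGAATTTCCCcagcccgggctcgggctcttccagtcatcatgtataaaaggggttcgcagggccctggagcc
Cxcl10: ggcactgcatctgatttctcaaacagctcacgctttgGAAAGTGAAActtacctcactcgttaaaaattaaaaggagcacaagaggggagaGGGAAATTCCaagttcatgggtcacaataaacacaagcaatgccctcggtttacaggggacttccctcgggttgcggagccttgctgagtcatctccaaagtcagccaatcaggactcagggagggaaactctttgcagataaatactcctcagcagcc
In Cxcl1 the capitals run from base -71 to base -61 before the start, in Cxcl2 from -97 to -87 and in Cxcl3 from -73 to -63, where matches on the plus and minus strands overlap by all but the end bases. Cxcl10 holds the NF-kB letters from -159 to -150 and the interferon letters from -213 to -204. The table held 47 promoters for 40 of the 53 members. The form printed for Cxcl1, Cxcl2 and Cxcl3 was found in 4 of the 47 member promoters, theirs and that of Ccr3, and in 28 of all 32851 promoters (0.0852%). With the centre base free, which includes that form, the NF-kB motif was found in 5 member promoters and in 93 of all (0.283%). The interferon letters were found in 3 member promoters and in 978 of all (2.98%), and the NF-kB form of the immunoglobulin kappa enhancer in 0 member promoters and in 46 of all (0.14%). A match is a run of letters in these windows and was not tested as a binding site.

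The libraries held 18.4 to 18.9 M estimated reads each, and levels are given as CPM, reads scaled to a common library size. Star, which brings cholesterol into mitochondria for steroid synthesis, had 58.0 ± 0.61 CPM in CiLC, 182 ± 2.93 CPM in LC and 5.28 ± 0.269 CPM in MEF (SD, n = 2 each). Cyp11a1, the first enzyme of that synthesis, had 12.3 ± 0.677 CPM in CiLC, 705 ± 17.8 CPM in LC and 1.33 ± 0.117 CPM in MEF. The other listed Leydig markers were mixed. Nr5a1 had means of 69.0 CPM in CiLC, 166 CPM in LC and 0.157 CPM in MEF, and Hsd3b1 had 6.12, 35.3 and 0.698 CPM. Insl3 had 0.942 and 0.174 CPM in CiLC, 6.04 and 7.06 CPM in LC, and 0 and 1.93 CPM in MEF. The defining Leydig genes Cyp17a1 (0 and 0.0589 CPM) and Lhcgr (0.174 and 0.118 CPM) were near 0 in LC, so LC carried only part of the markers of their label. In CiLC, Cyp17a1 had 0.0509 and 0.0507 CPM, and Lhcgr was at 0. The 14 macrophage markers were all above 0 in each group. Their sums were 11830 to 12014 CPM in CiLC, 4615 to 4957 CPM in LC and 8101 to 8174 CPM in MEF. Most of the CiLC sum was Lyz2. It had 7485 and 7657 CPM in CiLC, 2708 and 2400 CPM in LC, and 2632 and 2688 CPM in MEF. Other markers differed in order, with Csf1r and C1qa highest in MEF, Mrc1 and Adgre1 in CiLC, and Itgam and Marco in LC. The fibroblast list summed to between 27146 and 30373 CPM in every library, mostly from collagen genes, while other fibroblast markers differed between groups. Thy1 had 795 and 838 CPM in CiLC, 5.57 and 5.89 CPM in LC, and 395 and 396 CPM in MEF, and Lum had 373 and 370 CPM in CiLC, 6.44 and 5.00 CPM in LC, and 96.6 and 85.9 CPM in MEF. Pdgfra was 5.91-fold higher in LC than in MEF. The neutrophil list summed to at most 21.7 CPM in CiLC, 14.8 CPM in LC and 42.2 CPM in MEF, mostly Csf3r in CiLC and MEF, with Elane at 0 in CiLC and LC and Mpo at 0 in CiLC and MEF. Other neutrophil genes were highest in LC, where Camp had 9.16 and 7.95 CPM and S100a8 1.74 and 2.00 CPM, against at most 0.0521 and 0.105 CPM in MEF. The T cell, B cell and mast cell lists summed to at most 4.29, 0.87 and 0.353 CPM in any library, the dendritic cell list to at most 31.7 CPM and the endothelial list to at most 77.5 CPM, the highest in LC. Most of that endothelial sum was Cdh5, with 57.2 and 63.9 CPM in LC. Pecam1 and Tie1 were also highest in LC, but Kdr and Emcn were highest in MEF and Tek in CiLC. In bulk RNA, fewer cells of a type and less RNA per cell cannot be told apart.

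The summed CPM of the ligands was highest in LC, and that of the receptors in MEF. The 32 ligands together made up 1791 and 1855 CPM in CiLC, 7753 and 7569 CPM in LC, and 1446 and 1451 CPM in MEF, which is 0.182%, 0.766% and 0.145% of the reads. The 21 receptors together made up 155 and 158 CPM in CiLC, 175 and 169 CPM in LC, and 778 and 802 CPM in MEF. Most of the MEF sum was Cx3cr1, with 582 and 598 CPM. Of the other receptors, Cxcr4 was also highest in MEF, while Ackr4 was highest in LC and Ackr3 in CiLC. Per kilobase of exon, the measure that allows genes to be ranked, the leading members of CiLC were Ccl2 (199 CPM per kb), Ccl3 (181) and Ccl7 (149). Those of LC were Ccl2 (1230 CPM per kb), Ccl6 (918) and Cxcl5 (749), and those of MEF were Ccl3 (258 CPM per kb), Ccl2 (139) and the receptor Cx3cr1 (131). Ccl2 was thus among the leading members of every group, whereas a receptor was among them only in the MEF list.

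Of the 53 members, 39 passed the filter on low counts, 27 ligands and 12 receptors. A member can pass through a single group in which it is high, so the counts below describe these 39 and are not evidence for the family as a whole. A member was called at an adjusted p of 0.05 in edgeR's quasi-likelihood test with Benjamini-Hochberg adjustment over all 14581 genes tested, and every adjusted p below comes from that test unless another is named. In CiLC against MEF, 16 members were higher, where 26.1% of all genes tested were, and 10 were lower, where 25.5% were; 13 were not called. Together these calls covered 66.7% of the 39, beside 51.6% of all genes. With a change of at least 2-fold added, 14 were higher (6.23% of all genes) and 5 lower (5.98%), where 12.2% of all genes passed in either direction. The median log2 fold change was 0.62 over the 27 ligands and -0.36 over the 12 receptors, against 0.01 over all genes. When the spread was instead set to a coefficient of variation of 0.4, far above the 3.16% fitted to these libraries, 7 members were called higher and 3 lower. For that setting no share of all genes is given, here or in the comparisons below. The shares above belong to the main fit, so the counts at 0.4 cannot be set against them.

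In LC against MEF, 21 members were higher (35.7% of all genes tested) and 9 lower (35.0%), and 9 were not called, so that 76.9% of the members and 70.7% of all genes were called. At 2-fold or more, 18 were higher (14.3% of all genes) and 5 lower (12.9%), where 27.2% of all genes passed in either direction. Over ligands the median log2 fold change was 1.80 and over receptors -0.01. At the assumed coefficient of variation of 0.4, 14 were called higher and 4 lower. In CiLC against LC, 10 members were higher (35.0% of all genes tested) and 23 lower (35.6%), and 6 were not called, so that 84.6% of the members and 70.6% of all genes were called. At 2-fold or more, 10 were higher (11.4% of all genes) and 16 lower (14.0%), where 25.4% of all genes passed in either direction. The ligands had a median log2 fold change of -0.95 and the receptors one of -0.38. At the assumed 0.4, 8 were called higher and 10 lower. The comparisons share libraries, so their counts are not independent of each other.

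**Figure D1:**
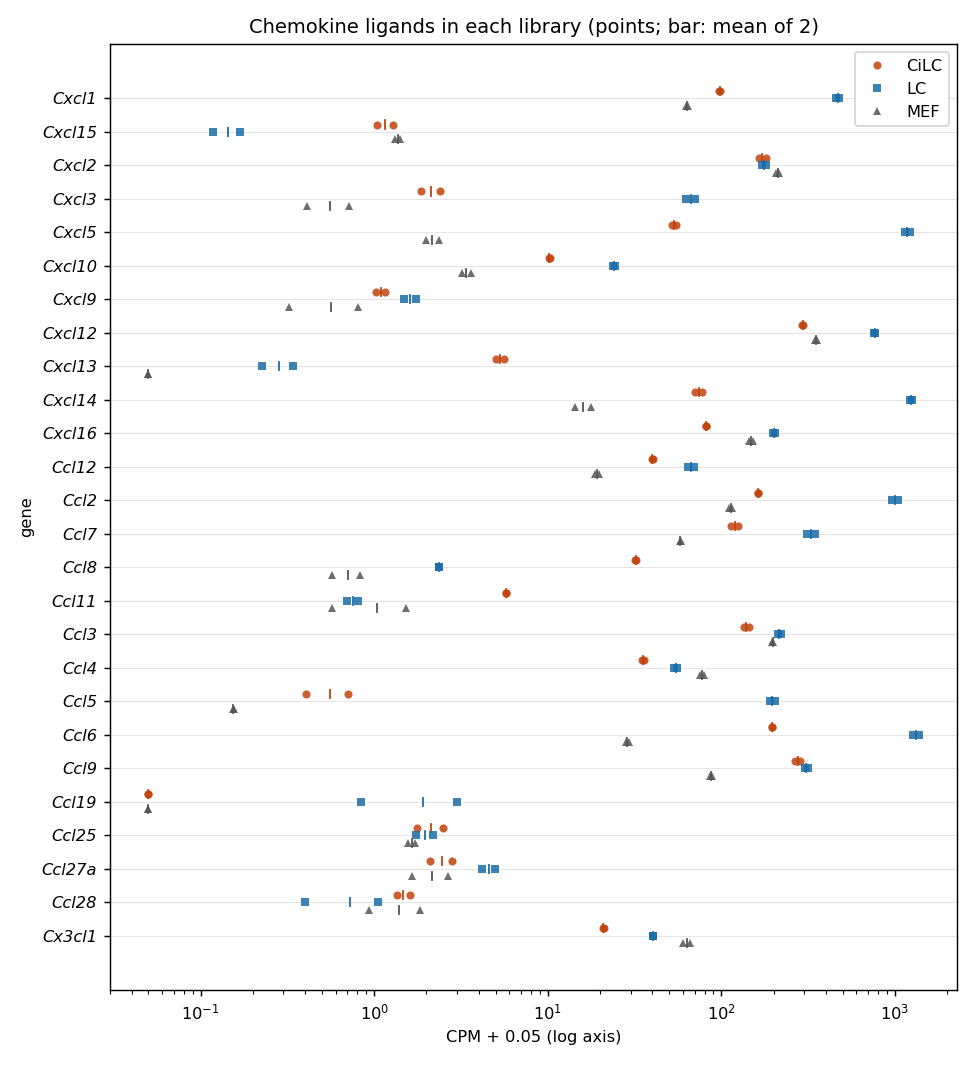
CPM of each chemokine ligand with a group mean of at least 1 CPM, on a logarithmic axis after adding 0.05. Points are libraries, vertical bars are means of 2 libraries, and LC lie to the right of the other groups for Cxcl5, Cxcl14, Ccl6 and Ccl5, while CiLC lie to the right for Ccl8, Ccl11 and Cxcl13.

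Changes among the ELR ligands, which attract neutrophils, ran from a log2 fold change of -3.80 for Cxcl15 to 9.12 for Cxcl5 in LC against MEF. Cxcl5, a ligand of Cxcr2, had 52.0 and 54.8 CPM in CiLC, 1146 and 1213 CPM in LC, and 2.30 and 1.93 CPM in MEF. The groups did not overlap, and CiLC lay between the other groups. Its log2 fold change was 4.65 ± 0.17 (SE) in CiLC against MEF (25.2-fold, adjusted p = 8.09e-20), 9.12 ± 0.16 in LC against MEF (556-fold, adjusted p = 2.15e-27) and -4.46 ± 0.05 in CiLC against LC (adjusted p = 1.5e-25). Cxcl3 had 1.82 and 2.35 CPM in CiLC, 70.7 and 62.6 CPM in LC, and 0.662 and 0.358 CPM in MEF. It followed the same order as Cxcl5 at lower CPM, 126-fold higher in LC than in MEF (log2 fold change 6.98 ± 0.34, adjusted p = 2.58e-21), 3.95-fold higher in CiLC than in MEF (adjusted p = 2.75e-05) and 31.9-fold lower in CiLC than in LC (adjusted p = 1.32e-20).

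Cxcl1, which attracts neutrophils through Cxcr2, had 97.4 and 98.3 CPM in CiLC, 476 and 460 CPM in LC, and 64.4 and 62.6 CPM in MEF. It was 1.54-fold higher in CiLC than in MEF (adjusted p = 8.29e-10), 7.37-fold higher in LC than in MEF (adjusted p = 3.23e-23) and 4.78-fold lower in CiLC than in LC (adjusted p = 1.4e-21). Cxcl2, a neutrophil attractant known from activated macrophages, had 165 and 180 CPM in CiLC, 181 and 172 CPM in LC, and 206 and 216 CPM in MEF. All 4 CiLC and LC libraries lay below both MEF libraries, and CiLC and LC overlapped. The log2 fold changes of Cxcl2 were -0.29 in CiLC against MEF (adjusted p = 4.86e-05), -0.25 in LC against MEF (adjusted p = 0.000142) and -0.04 in CiLC against LC (adjusted p = 0.542). With the coefficient of variation set to 0.1, the first 2 of these calls were lost (adjusted p = 0.13 and 0.134). The LC levels of Cxcl1, Cxcl2 and Cxcl3, whose NF-kB letters are printed above, stood in different ratios to MEF. Any part of these letters in that was not tested. Cxcl15, an ELR ligand best known from mouse lung, had 0.983 and 1.23 CPM in CiLC, 0.0673 and 0.119 CPM in LC, and 1.27 and 1.36 CPM in MEF. LC held 1.16 and 2.02 estimated reads of it, so that the ratio of MEF to LC reads was 14.9, with an exact 95% binomial interval of 4.81 to 74.7, and that of CiLC to LC reads was 12.8 (4.09 to 64.2). These 5 genes neighbour each other on chromosome 5, and estimated counts of Cxcl2, Cxcl3, Cxcl5 and Cxcl15 were not all whole numbers, so some of their reads may have been divided with similar genes.

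The receptor for these ligands, Cxcr2, had 5.21 and 5.73 CPM in CiLC, 8.34 and 8.16 CPM in LC, and 7.24 and 6.20 CPM in MEF. It was 1.51-fold lower in CiLC than in LC (adjusted p = 0.000477) and was not called in CiLC against MEF (log2 fold change -0.30, adjusted p = 0.0783). In LC against MEF its log2 fold change was 0.30 (adjusted p = 0.0466), a call that ended in 11 of the other settings. Cxcr1, another receptor of ELR ligands, had at most 3.02 estimated reads in a library.

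The interferon-induced ligands of Cxcr3, which attract activated T cells, were higher in LC than in MEF. Cxcl10 had 10.2 and 10.1 CPM in CiLC, 23.8 and 24.3 CPM in LC, and 3.15 and 3.54 CPM in MEF, with no overlap between groups. It was 3.03-fold higher in CiLC than in MEF (log2 fold change 1.60 ± 0.15, adjusted p = 5.71e-10), 7.18-fold higher in LC than in MEF (2.84 ± 0.14, adjusted p = 3.79e-16) and 2.37-fold lower in CiLC than in LC (adjusted p = 4.12e-11). Cxcl9 had 0.972 and 1.10 CPM in CiLC, 1.43 and 1.69 CPM in LC, and 0.761 and 0.274 CPM in MEF. It was called only in LC against MEF (log2 fold change 1.58 ± 0.44, adjusted p = 0.0019); without MEF replicate 2 the value was 1.00 and the call was lost (adjusted p = 0.0555), and without MEF replicate 1 it was 2.56. Cxcr3 itself had 12 and 9 reads in CiLC, 2 and 0 reads in LC, and 13 and 10 reads in MEF. The ratio of MEF to LC reads was 10.3 (exact 95% binomial interval 2.54 to 90.0) and that of CiLC to LC reads 9.13 (2.23 to 80.3); the CiLC against LC call of Cxcr3 was lost without LC replicate 2 (adjusted p = 0.0521). Both LC reads of Cxcr3 lay in replicate 1. Without LC replicate 2 its fitted difference was 4.95-fold in LC against MEF and 4.40-fold in CiLC against LC, and without replicate 1 LC were at 0 and the fitted log2 fold changes of -6.52 and 6.35 depend on the prior count.

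Of the remaining CXC ligands, most of which act in resting tissue, the 4 tested were all higher in LC than in MEF. Among all genes tested, 35.7% were called higher there. Cxcl14, made by epithelium and fibroblasts, had 70.2 and 77.7 CPM in CiLC, 1213 and 1251 CPM in LC, and 17.7 and 14.2 CPM in MEF. It was 4.63-fold higher in CiLC than in MEF (log2 fold change 2.21 ± 0.09, adjusted p = 2.39e-16), 77.2-fold higher in LC than in MEF (6.27 ± 0.08, adjusted p = 4.06e-26) and 16.7-fold lower in CiLC than in LC (adjusted p = 3.85e-24). Cxcl12, the stromal ligand of Cxcr4 and Ackr3, had 295 and 292 CPM in CiLC, 768 and 758 CPM in LC, and 348 and 354 CPM in MEF. LC exceeded MEF by 2.18-fold (log2 fold change 1.12 ± 0.04, adjusted p = 1.73e-16), and CiLC were 2.60-fold below LC (adjusted p = 4.62e-18). The difference of CiLC from MEF was small (log2 fold change -0.26, adjusted p = 4.3e-05) and was not called when the coefficient of variation was set to 0.1 (adjusted p = 0.191). Cxcl16, a membrane-bound ligand that also takes up oxidised lipoprotein, had 81.2 and 81.2 CPM in CiLC, 199 and 203 CPM in LC, and 144 and 151 CPM in MEF. It was 1.82-fold lower in CiLC than in MEF (adjusted p = 7.97e-13), 1.36-fold higher in LC than in MEF (adjusted p = 1.28e-08) and 2.48-fold lower in CiLC than in LC (adjusted p = 8.2e-17).

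Cxcl13, the B cell attractant of lymphoid follicles, was mainly found in CiLC. It had 98 and 109 reads (4.99 and 5.53 CPM) in CiLC, 5 and 3 reads (0.290 and 0.177 CPM) in LC, and 0 reads in both MEF libraries. Against a floor of 3 reads over the MEF libraries, CiLC were at least 67.1-fold higher (adjusted p = 2.23e-11) and LC at least 2.98-fold higher (adjusted p = 0.00292). CiLC were 21.9-fold higher than LC (adjusted p = 2.3e-10). Its receptor Cxcr5 reached at most 0.829 CPM in a library and was not called in any comparison.

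The CC ligands listed as monocyte-attracting, Ccl2, Ccl7, Ccl8 and Ccl12, were all higher in CiLC than in MEF and all higher in LC than in MEF. Of all genes tested, 26.1% and 35.7% were called higher in these comparisons. Ccl2, the main ligand of Ccr2, had 162 and 162 CPM in CiLC, 1037 and 963 CPM in LC, and 115 and 111 CPM in MEF. It was 1.43-fold higher in CiLC than in MEF (adjusted p = 1.58e-08), 8.85-fold higher in LC than in MEF (log2 fold change 3.15 ± 0.05, adjusted p = 1.15e-23) and 6.19-fold lower in CiLC than in LC (adjusted p = 2.13e-22). Ccl7, which also binds Ccr2, had 114 and 124 CPM in CiLC, 346 and 313 CPM in LC, and 58.1 and 57.4 CPM in MEF. It was 2.07-fold higher in CiLC than in MEF (adjusted p = 9.93e-13), 5.71-fold higher in LC than in MEF (adjusted p = 7.48e-21) and 2.76-fold lower in CiLC than in LC (adjusted p = 5.85e-17). Ccl12, a mouse Ccr2 ligand, had 39.7 and 40.1 CPM in CiLC, 69.1 and 63.8 CPM in LC, and 18.6 and 19.6 CPM in MEF, which is 2.09-fold higher in CiLC than in MEF (adjusted p = 1.13e-11), 3.49-fold higher in LC than in MEF (adjusted p = 5.93e-17) and 1.67-fold lower in CiLC than in LC (adjusted p = 1.32e-10).

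Ccl8 departed from the other 3 by its high level in CiLC. It had 31.9 and 32.0 CPM in CiLC, 2.32 and 2.30 CPM in LC, and 0.524 and 0.781 CPM in MEF, so that both CiLC libraries lay above the 4 others. The log2 fold change was 5.60 ± 0.29 in CiLC against MEF (48.4-fold, adjusted p = 9.06e-19), 1.81 ± 0.33 in LC against MEF (adjusted p = 4.27e-06) and 3.79 ± 0.17 in CiLC against LC (13.8-fold, adjusted p = 6.15e-18). Ccl11, eotaxin, a ligand of Ccr3 that attracts eosinophils and lies in the same gene cluster on chromosome 11 as Ccl2, had 5.70 and 5.68 CPM in CiLC, 0.754 and 0.648 CPM in LC, and 1.47 and 0.521 CPM in MEF. It was 5.70-fold higher in CiLC than in MEF (log2 fold change 2.51 ± 0.31, adjusted p = 5.63e-08) and 8.05-fold higher in CiLC than in LC (3.01 ± 0.36, adjusted p = 7.07e-09). The MEF libraries differed from each other, and without MEF replicate 1 the CiLC against MEF value was 3.43. LC against MEF was not called (log2 fold change -0.50, adjusted p = 0.304). Ccr3, which binds Ccl11 and Ccl7, had 16 and 20 reads in CiLC, 2 and 1 reads in LC, and 0 and 2 reads in MEF. The ratio of CiLC to MEF reads was 17.5 (exact 95% binomial interval 4.51 to 150) and that of CiLC to LC reads 10.4 (3.3 to 53), at a level of at most 1.01 CPM in a library. Both MEF reads of Ccr3 lay in replicate 2: the fitted CiLC against MEF difference was 8.29-fold without MEF replicate 1, and without replicate 2 MEF were at 0 and the fitted log2 fold change, 7.09, depends on the prior count.

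Of the 6 inflammatory CC ligands tested, Ccl5, Ccl6, Ccl9 and Ccl3 were highest in LC, Ccl4 in MEF and Ccl11 in CiLC. Ccl5, which attracts T cells and macrophages, had 7 and 13 reads (0.356 and 0.659 CPM) in CiLC, 202 and 191 CPM in LC, and 2 reads (0.105 and 0.104 CPM) in each MEF library. LC stood far above both other groups, with a log2 fold change of 10.79 ± 0.72 against MEF (adjusted p = 2.23e-25), and CiLC were 382-fold below LC (log2 fold change -8.58 ± 0.32, adjusted p = 3.33e-25). In CiLC against MEF the log2 fold change was 2.21 ± 0.79 (adjusted p = 0.00592), a call lost without CiLC replicate 2 (adjusted p = 0.101). Ccl6, a macrophage product of rodents, had 196 and 196 CPM in CiLC, 1374 and 1269 CPM in LC, and 29.4 and 28.0 CPM in MEF. It was 6.84-fold higher in CiLC than in MEF (log2 fold change 2.77 ± 0.06, adjusted p = 2.08e-20), 46.1-fold higher in LC than in MEF (5.53 ± 0.06, adjusted p = 1.33e-26) and 6.74-fold lower in CiLC than in LC (adjusted p = 1.14e-22). Ccl9, a related rodent ligand of Ccr1, had 265 and 284 CPM in CiLC, 314 and 304 CPM in LC, and 88.8 and 86.3 CPM in MEF. CiLC and LC lay close together, 3.14-fold (adjusted p = 6.98e-18) and 3.53-fold (adjusted p = 2.41e-19) above MEF. Their own difference in Ccl9 had a log2 fold change of -0.17 (adjusted p = 0.00268) and was not called without CiLC replicate 1 (adjusted p = 0.103).

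Ccl3 and Ccl4, inflammatory ligands that macrophages release, were lowest in CiLC. Ccl3 had 134 and 143 CPM in CiLC, 221 and 211 CPM in LC, and 200 and 195 CPM in MEF. It was 1.42-fold lower in CiLC than in MEF (adjusted p = 6.51e-09) and 1.56-fold lower in CiLC than in LC (adjusted p = 5.61e-11). In LC against MEF its log2 fold change was 0.13 (adjusted p = 0.0199), a call lost without MEF replicate 2 (adjusted p = 0.0989) or LC replicate 1 (0.152). Ccl4 had 34.6 and 36.0 CPM in CiLC, 55.6 and 53.3 CPM in LC, and 79.6 and 75.7 CPM in MEF. It was 2.20-fold lower in CiLC than in MEF (log2 fold change -1.14 ± 0.06, adjusted p = 7.33e-14), and was 1.42-fold lower in LC than in MEF (adjusted p = 2.19e-08). Cx3cl1, the membrane-tethered ligand of Cx3cr1, had 20.6 and 21.1 CPM in CiLC, 40.3 and 40.4 CPM in LC, and 60.4 and 66.0 CPM in MEF. It was 3.03-fold lower in CiLC than in MEF (log2 fold change -1.60 ± 0.07, adjusted p = 1.35e-15), 1.57-fold lower in LC than in MEF (adjusted p = 1.74e-09) and 1.93-fold lower in CiLC than in LC (adjusted p = 3.59e-11).

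The CC ligands of lymphoid and epithelial tissue were scarce. Ccl19, which guides cells carrying Ccr7 into lymph nodes, had 50.9 and 13.4 estimated reads (2.95 and 0.787 CPM) in LC and 0 reads in all CiLC and MEF libraries. LC were at least 24.0-fold above MEF (adjusted p = 4.92e-06) and CiLC at least 24.6-fold below LC (adjusted p = 4.46e-06), against 3 reads over a group, and DESeq2 called neither difference (adjusted p = 0.162 and 0.16). Most of the Ccl19 reads lay in LC replicate 1, and the fitted log2 fold change against groups at 0, 8.13 in size in both comparisons, was 8.82 in size without LC replicate 2. Ccl27a, a skin ligand, had 2.04 and 2.77 CPM in CiLC, 4.15 and 4.92 CPM in LC, and 2.62 and 1.59 CPM in MEF. It was 2.15-fold higher in LC than in MEF (adjusted p = 0.000216) and 1.89-fold lower in CiLC than in LC (adjusted p = 0.00106). Ccl28, a mucosal ligand, had 1.55 and 1.30 CPM in CiLC, 0.350 and 1.01 CPM in LC, and 1.79 and 0.878 CPM in MEF; its call in CiLC against LC (log2 fold change 1.07 ± 0.45, adjusted p = 0.0333) was lost without either CiLC library (adjusted p = 0.139 and 0.0657) or without LC replicate 1 (0.38), and without LC replicate 2 the value was 2.01. Ccl25, the thymic and gut ligand of Ccr9, had between 1.52 and 2.44 CPM in every library and was not called in any comparison. Ccl27b, at most 0.694 CPM, was called lower in CiLC than in LC (adjusted p = 0.0429), a call lost without CiLC replicate 2 (adjusted p = 0.3), without LC replicate 1 (0.302) or without LC replicate 2 (0.0777). Its fitted log2 fold change of -2.22 was -1.25 without CiLC replicate 2 and -6.21 without CiLC replicate 1, where CiLC were at 0.

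**Figure D2:**
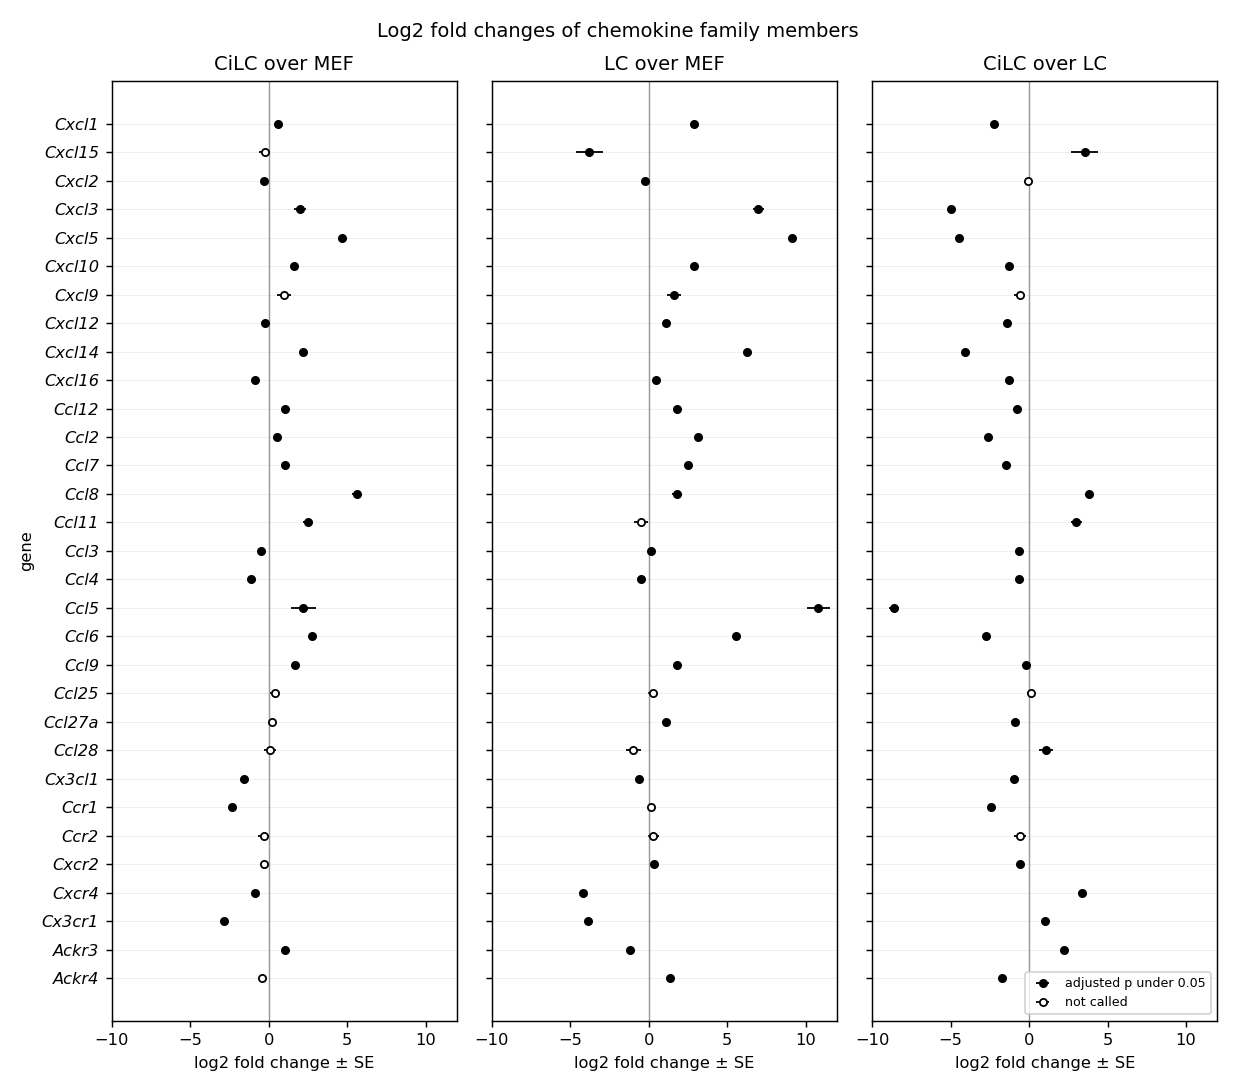
Log2 fold change of members described by library that have reads in every group, with standard errors, in CiLC against MEF, LC against MEF and CiLC against LC. Ligands such as Cxcl5, Cxcl14 and Ccl6 lie above 0 in both comparisons with MEF. The ligands Ccl4 and Cx3cl1 and the receptors Cx3cr1 and Cxcr4 lie below 0 in both.

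Among the receptors, Cx3cr1, which marks monocytes and many tissue macrophages, had the highest CPM in MEF and CiLC but not in LC. It had 82.2 and 79.4 CPM in CiLC, 40.6 and 38.7 CPM in LC, and 582 and 598 CPM in MEF. The groups did not overlap, and Cx3cr1 was 7.30-fold lower in CiLC than in MEF (log2 fold change -2.87 ± 0.05, adjusted p = 2.31e-22), 14.9-fold lower in LC than in MEF (-3.90 ± 0.06, adjusted p = 6.28e-25) and 2.04-fold higher in CiLC than in LC (1.03 ± 0.06, adjusted p = 3.1e-13). Ccr1, which binds Ccl3, Ccl6 and Ccl9, had 8.09 and 9.63 CPM in CiLC, 47.9 and 47.9 CPM in LC, and 43.2 and 44.9 CPM in MEF. Its level was low in CiLC alone, 4.97-fold below MEF (adjusted p = 8.99e-17) and 5.40-fold below LC (adjusted p = 1.04e-17), and LC against MEF was not called (log2 fold change 0.12, adjusted p = 0.0898). Ccr2, the receptor of Ccl2, Ccl7 and Ccl12, had 0.836 and 1.01 CPM in CiLC, 1.65 and 1.12 CPM in LC, and 0.878 and 1.38 CPM in MEF. These values overlapped, and Ccr2 was not called in any comparison.

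Beside these receptors, the macrophage genes Csf1r and Lyz2 had 928 ± 12.6 and 7571 ± 122 CPM in CiLC, 340 ± 7.12 and 2554 ± 218 CPM in LC, and 1290 ± 35.2 and 2660 ± 39.3 CPM in MEF (SD, n = 2 each). Of the 14 macrophage markers, 5 were called higher and 5 lower in CiLC against MEF (26.1% and 25.5% of all genes tested), 3 higher and 10 lower in LC against MEF (35.7% and 35.0%), and 11 higher and 3 lower in CiLC against LC (35.0% and 35.6%). Their part in the results for Cx3cr1 and Ccr1 and for the ligands was not tested. The sum of the 14 markers was lowest in LC, but Itgam and Marco among them were highest there. Itgam had 712 and 684 CPM in CiLC, 798 and 782 CPM in LC, and 663 and 651 CPM in MEF. Marco, a macrophage scavenger receptor, had 16.9 and 16.1 CPM in CiLC, 126 and 130 CPM in LC, and 0.0524 and 0 CPM in MEF.

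**Figure D3:**
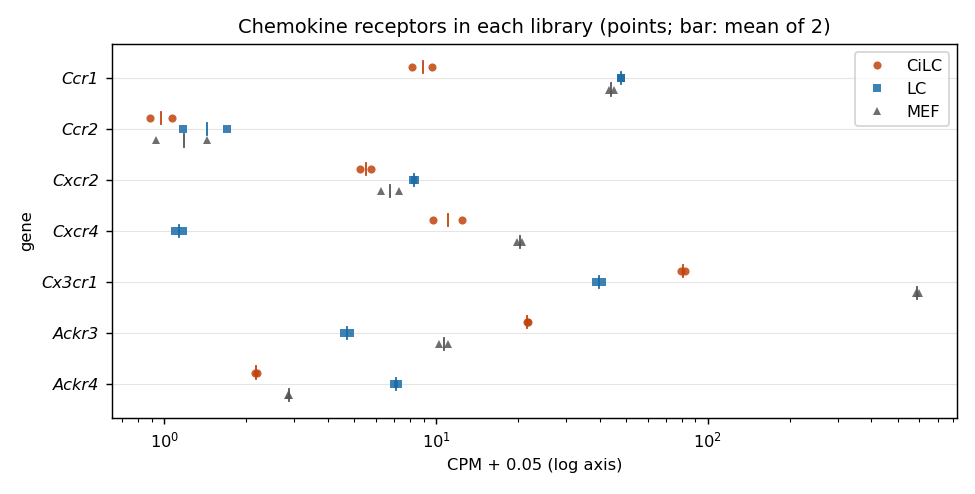
CPM of the chemokine receptors described by library, on a logarithmic axis after adding 0.05, with libraries as points and the mean of 2 as a bar. Cx3cr1 and Cxcr4 are highest in MEF, Ackr3 is highest in CiLC and Ackr4 in LC, and the groups overlap for Ccr2.

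**Figure D4:**
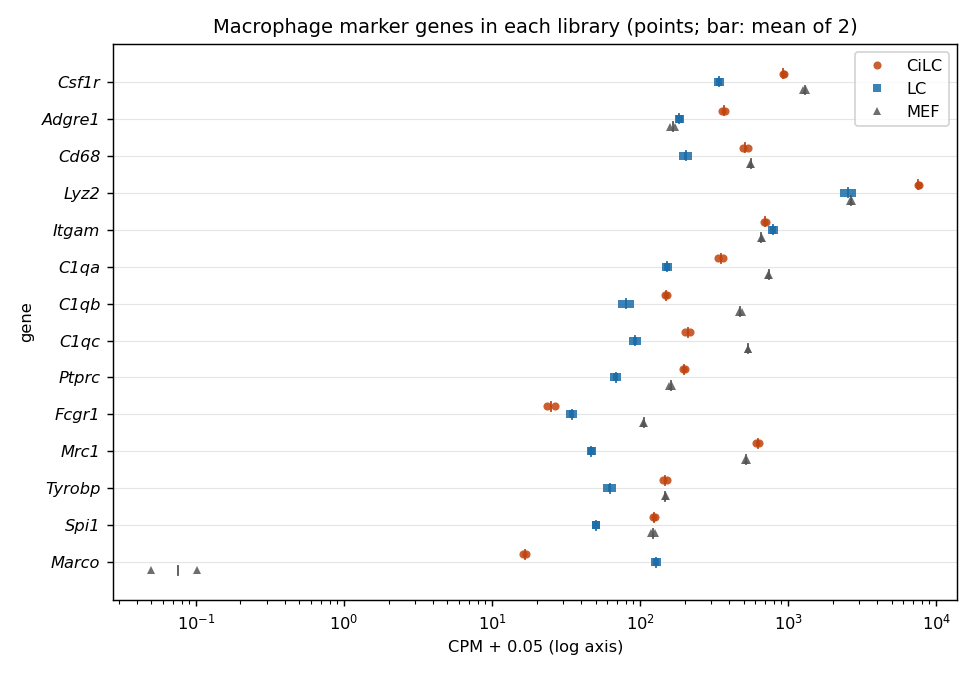
CPM of the 14 macrophage marker genes in the 6 libraries, on a logarithmic axis after adding 0.05. CiLC are highest for Lyz2 and Mrc1, LC for Marco, and MEF for Csf1r and the complement genes C1qa, C1qb and C1qc.

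The receptors of Cxcl12 moved apart. Cxcr4, its signalling receptor, had 9.72 and 12.4 CPM in CiLC, 1.04 and 1.12 CPM in LC, and 19.9 and 20.6 CPM in MEF. It was 1.83-fold lower in CiLC than in MEF (log2 fold change -0.87 ± 0.11, adjusted p = 2.54e-07), 18.6-fold lower in LC than in MEF (-4.22 ± 0.25, adjusted p = 3.98e-16) and 10.2-fold higher in CiLC than in LC (3.35 ± 0.25, adjusted p = 3.26e-13). Ackr3, an atypical receptor that removes Cxcl12 without G protein signalling, had 21.5 and 21.7 CPM in CiLC, 4.75 and 4.53 CPM in LC, and 10.2 and 11.0 CPM in MEF. It was 2.03-fold higher in CiLC than in MEF (log2 fold change 1.02 ± 0.09, adjusted p = 2.66e-09), 2.28-fold lower in LC than in MEF (-1.19 ± 0.13, adjusted p = 1.7e-08) and 4.64-fold higher in CiLC than in LC (2.21 ± 0.12, adjusted p = 2.52e-14). In CiLC against MEF, Cxcr4 was therefore lower and Ackr3 higher, while both were lower in LC than in MEF, where Cxcl12 itself was higher. Ackr4, the atypical receptor that takes up Ccl19 and Ccl25, had 2.10 and 2.13 CPM in CiLC, 6.94 and 7.20 CPM in LC, and 2.81 and 2.83 CPM in MEF. It was 2.50-fold higher in LC than in MEF (adjusted p = 2.81e-07) and 3.35-fold lower in CiLC than in LC (adjusted p = 7.88e-09), and CiLC against MEF was not called (log2 fold change -0.42, adjusted p = 0.0957).

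The other 19 members stayed under a mean of 1 CPM in each group, and 14 of them did not pass the filter. Those 14 were Ccl17, Ccl20, Ccl22, Ccl24, Cxcl17, Ccr4, Ccr6, Ccr7, Ccr8, Ccr9, Cxcr1, Cxcr6, Ackr1 and Ackr2, with at most 11 reads in a library and a group mean of at most 0.556 CPM. Ccl22, a ligand of Ccr4 made by dendritic cells and macrophages, had 1 and 2 reads in CiLC, 8 and 11 reads in LC, and 2 and 1 reads in MEF. Ccr7, the receptor of Ccl19, had 0 and 1 reads in CiLC, 7 and 4 reads in LC, and 0 reads in MEF. Ccr10, the receptor of Ccl27a and Ccl28, had at most 1.35 CPM in a library and was not called in any comparison.

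Genes of the pathway outside the family were read from lists of related genes, with the same calls. The share of all genes called in each comparison, given again here, was 26.1% higher and 25.5% lower in CiLC against MEF, 35.7% and 35.0% in LC against MEF, and 35.0% and 35.6% in CiLC against LC. Of 6 relatives whose symbols the rule does not match, 2 were called higher, 2 lower and 2 neither in CiLC against MEF, 3 higher, 2 lower and 1 neither in LC against MEF, and 2 higher, 2 lower and 2 neither in CiLC against LC. Pf4, a CXC ligand of platelets and macrophages, had 16.9 and 17.2 CPM in CiLC, 33.3 and 31.3 CPM in LC, and 4.25 and 3.49 CPM in MEF, with log2 fold changes of 2.14 in CiLC against MEF (adjusted p = 4.37e-13) and 3.06 in LC against MEF (adjusted p = 2.47e-17). Rarres2, the chemoattractant chemerin, had 13.1 and 15.9 CPM in CiLC, 207 and 190 CPM in LC, and 4.99 and 3.46 CPM in MEF, with a log2 fold change of 5.56 in LC against MEF (adjusted p = 3.5e-23). The listed receptors that bind chemerin were lower in both comparisons with MEF. Ccrl2, which binds it without signalling, had 19.5 and 18.9 CPM in CiLC, 7.42 and 8.36 CPM in LC, and 69.6 and 69.8 CPM in MEF, and was 3.63-fold lower in CiLC than in MEF (adjusted p = 4.68e-17) and 8.83-fold lower in LC than in MEF (adjusted p = 2.31e-20). Cmklr1, the signalling receptor, had 34.3 and 38.6 CPM in CiLC, 24.8 and 27.6 CPM in LC, and 58.8 and 65.1 CPM in MEF, and was 1.70-fold lower in CiLC than in MEF (adjusted p = 1.86e-09) and 2.37-fold lower in LC than in MEF (adjusted p = 4.77e-13).

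Among 23 genes upstream of chemokine genes, 11 were called higher, 6 lower and 6 neither in CiLC against MEF, 17 higher, 5 lower and 1 neither in LC against MEF, and 6 higher, 14 lower and 3 neither in CiLC against LC. Il1a, an alarm cytokine, had 0.712 and 0.355 CPM in CiLC, 78.3 and 82.2 CPM in LC, and 0.315 and 0.156 CPM in MEF, a log2 fold change of 8.37 in LC against MEF (adjusted p = 1.15e-22). Irf7, an interferon regulatory factor, had 12.3 and 12.9 CPM in CiLC, 282 and 280 CPM in LC, and 8.75 and 9.63 CPM in MEF, a log2 fold change of 4.93 in LC against MEF (adjusted p = 2.44e-25). Il6, an inflammatory cytokine, had 2.90 and 2.38 CPM in CiLC, 32.6 and 34.4 CPM in LC, and 1.94 and 2.45 CPM in MEF, a log2 fold change of 3.93 in LC against MEF (adjusted p = 3.82e-18). These 3 genes were high in LC, whereas Tnf, another inflammatory cytokine, was lowest there. It had 60.8 and 64.6 CPM in CiLC, 13.2 and 11.5 CPM in LC, and 96.3 and 95.1 CPM in MEF, a log2 fold change of -2.95 in LC against MEF (adjusted p = 1.75e-20). Il1b, an inflammatory cytokine, had 3.51 and 3.30 CPM in CiLC, 27.5 and 26.4 CPM in LC, and 10.4 and 10.6 CPM in MEF, and was lower in CiLC than in MEF (log2 fold change -1.63, adjusted p = 3.03e-10). Il1r1, the interleukin-1 receptor, had 308 and 302 CPM in CiLC, 248 and 248 CPM in LC, and 88.1 and 86.7 CPM in MEF, a log2 fold change of 1.80 in CiLC against MEF (adjusted p = 3.86e-19).

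Of 22 genes of receptor signalling, 5 were called higher, 16 lower and 1 neither in CiLC against MEF, 7 higher, 13 lower and 2 neither in LC against MEF, and 10 higher, 11 lower and 1 neither in CiLC against LC. Grk3, a kinase that switches off receptors, had 17.5 and 17.2 CPM in CiLC, 6.96 and 7.06 CPM in LC, and 3.74 and 4.27 CPM in MEF, a log2 fold change of 2.12 in CiLC against MEF (adjusted p = 4.78e-13). Rgs1, which shortens G protein signals, had 31.2 and 30.8 CPM in CiLC, 40.0 and 43.4 CPM in LC, and 103 and 96.4 CPM in MEF, a log2 fold change of -1.69 in CiLC against MEF (adjusted p = 8.52e-17). Both of these genes act to end signalling, and they differed in direction. Of the other listed Grk, Rgs and Arrb genes, Rgs2, Arrb1, Arrb2, Grk2 and Grk6 were lower in CiLC than in MEF. Only Grk5 and Rgs16 were higher. Gnai1, an inhibitory G protein subunit, had 11.4 and 11.7 CPM in CiLC, 96.9 and 97.4 CPM in LC, and 9.38 and 8.95 CPM in MEF, a log2 fold change of 3.40 in LC against MEF (adjusted p = 5.5e-22). Elmo1, a partner of Dock2 in cell migration, had 59.8 and 57.8 CPM in CiLC, 30.4 and 31.5 CPM in LC, and 120 and 129 CPM in MEF, a log2 fold change of -2.01 in LC against MEF (adjusted p = 6.95e-19).

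Of the 6 genes of chemokine processing, proteases that trim or shed chemokines, 6 were called higher in CiLC against MEF, with changes from 1.12-fold for Adam10 and 1.24-fold for Mmp2 upward. In LC against MEF, 3 were called higher and 3 lower, and in CiLC against LC, 5 higher and 1 lower. Mmp9, gelatinase B, had 364 and 381 CPM in CiLC, 38.3 and 40.3 CPM in LC, and 0.996 and 1.93 CPM in MEF, with log2 fold changes of 7.99 in CiLC against MEF (adjusted p = 1.83e-24) and 3.24 in CiLC against LC (adjusted p = 2.04e-22). Mmp3, stromelysin-1, had 487 and 492 CPM in CiLC, 782 and 736 CPM in LC, and 14.9 and 10.8 CPM in MEF, with log2 fold changes of 5.25 in CiLC against MEF (adjusted p = 3.28e-23) and 5.88 in LC against MEF (adjusted p = 3.96e-25). Dpp4, which removes the first residues of Cxcl10, Cxcl12 and Ccl5, had 8.85 and 9.12 CPM in CiLC, 1.18 and 1.26 CPM in LC, and 2.79 and 2.47 CPM in MEF. Its log2 fold change was 1.78 in CiLC against MEF (adjusted p = 1.67e-09) and -1.12 in LC against MEF (adjusted p = 0.000289).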

How the data were processed

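RNA sequencing measured gene expression in 6 libraries, grouped and numbered from their titles. Each deposited value is an expected count, an estimated number of reads for 1 gene, per the file headers. HISAT and the build mm9 are named in the submitters' processing notes. Its version, the annotation, the strand setting and the program that counted reads were not given in the sources used here. At least 1 of the 6 values was not whole for 23 of the 53 members, as happens where reads are divided between similar genes, and overlapping or antisense genes may share reads. Symbols were matched by gene number for 18179 of 18305 genes in an NCBI RefSeq table of GRCm38.p6.

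The rounded counts were analysed in edgeR (4.0.16, under R 4.3.3). The filter filterByExpr (minimum count 10, minimum total 15) removed 3724 genes and kept 14581. Scaling used TMM. A single quasi-likelihood fit (glmQLFit, glmQLFTest) held all 6 libraries, with group as its only term. P-values are two-sided and were adjusted by Benjamini-Hochberg across those 14581 genes. Fold changes carry a prior count of 0.125, and standard errors come from the fitted weights and the moderated dispersion, and are not below Poisson error. The fit was also run on simulated counts that used the spread fitted to these libraries. That run does not show how the calls behave under variation between separate cultures. CPM per kb uses the union of exons of each gene in the GENCODE annotation, which is of another build than the counts.

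Each library was counted as 1 unit in the tests. Libraries of a group differed beyond sampling noise (chi-square per degree of freedom 1.80 in CiLC, 2.94 in LC and 2.77 in MEF). Such a difference cannot show whether they stem from separate cultures. A group at 0 was set to a floor of 3 reads, and 1 to 3 reads were given as ratios with exact 95% binomial intervals; intervals and floors cover counting error only. Members and lists were chosen with earlier results of these data known. Members with a mean of at least 1 CPM in a group are given by library, and others by counts or, where called, by their calls; 1 member enters the counts and sums but is not reported here by name. Outside the family, the genes named are list markers and list genes among the 4 largest called changes of a comparison, but not all of these; the smallest changes of the protease list are also given. Other settings were DESeq2 1.42.0 (its size factors or its test), no filter, only the libraries compared, the replicate number as a block, an assumed coefficient of variation of 0.1 or 0.4, and leaving out each library. Ccl1, Ccl21a, Ccl21b, Ccl21c, Ccl26 and Cxcl11 are not analysed here.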

Additional observations from a re-analysis of the deposited data

How the results depend on the processing

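The counts of members called held within 1.5 times of their main values under every setting tried except an assumed coefficient of variation of 0.4. There, CiLC against MEF had 7 higher and 3 lower, LC against MEF had 4 lower, and CiLC against LC had 10 lower. No share of all genes is given for this or the other settings, so these counts describe the members only. Leaving out each library in turn gave 15 to 18 higher and 10 to 11 lower in CiLC against MEF, 19 to 23 higher and 9 to 11 lower in LC against MEF, and 9 to 11 higher and 22 to 24 lower in CiLC against LC. With the replicate number as a block, 16 members were higher and 10 lower in CiLC against MEF. In LC against MEF 20 were higher and 9 lower, and in CiLC against LC 10 were higher and 23 lower. Deviations of same-numbered libraries from their group means had correlations of 0.10, -0.01 and -0.09 in the same order of comparisons. These correlations run over all genes tested and include counting noise. They cannot decide whether same-numbered libraries share an origin, which the labels do not give. Of the 107 values of named members, 89 were called. Of all genes tested, 51.6% were called in CiLC against MEF, 70.7% in LC against MEF and 70.6% in CiLC against LC. The 107 include 5 values of members under a mean of 1 CPM, which were taken in only where called. Of the 89 calls, 76 were kept in all settings but 0.4, and 43 in all settings. Only values that were not called changed sign. Leaving out each library gave log2 fold changes in CiLC against MEF of -0.57 to 0.037 for Ccr2, -0.12 to 0.58 for Ccl27a and -0.32 to 0.68 for Ccl28. In LC against MEF they were -0.0069 to 0.62 for Ccr2 and -1.06 to 0.42 for Ccl11, and in CiLC against LC -0.13 to 0.37 for Ccl25 and -0.095 to 0.031 for Cxcl2. Ccl19, at 0 reads in CiLC and MEF, was -0.0015 with the replicate block. The cause of these changes was not tested. Depth limits the members under 1 CPM, for which a few reads decide the value.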
